A study of Mus musculus with 8 samples.

Results

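The clade B serpins described here are 8 mouse genes: Serpinb1a, Serpinb2, Serpinb6a, Serpinb6b, Serpinb8, Serpinb9, Serpinb9b and Serpinb10. They were taken from a list of symbols, and every array probe whose transcript accession mapped to one of them was used, which gave 8 probes, 1 for each gene, of 27509 probes with a gene symbol and 20887 genes in all. Total RNA came from dendritic cells grown from the bone marrow of female C57BL/6 mice and was measured on 8 one-colour Agilent arrays. The 4 immature samples were monocytes kept for 6 days in 10 ng/ml GM-CSF and IL-4, at 37 °C in 5% CO2. The 4 LPS samples were such immature cells given 50 ng/ml LPS, the bacterial cell wall component that activates dendritic cells through Toll-like receptor 4, overnight, and are listed as day 7. Both groups therefore carry GM-CSF and IL-4. Day of culture and LPS cannot be told apart, since no day 7 cells without LPS were analysed here. The labels do not say whether samples of a group came from separate mice or cultures, so the p-values measure the spread between these samples, which may be technical.

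Serpins are protease inhibitors that work as bait. A protease cuts an exposed loop of the serpin, the serpin snaps into a new shape, and the protease is left trapped and distorted in a covalent complex. Clade B serpins lack the classical secretion signal and stay largely inside the cell, where they are known to protect leukocytes from proteases that leak from their own granules or are delivered by killer cells.

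Several members sit side by side in clusters, and those on chromosome 1 did not all move in the same direction. The promoters of 6 members are therefore shown first, while Serpinb6a, which is also among the compared pairs, is only described further below. Each is the 150 bases that end just before an annotated RefSeq transcription start, on GRCm38.p6, read 5′ to 3′ on the gene's strand, which is the plus strand in all 6. Capitals mark matches to a short motif, on either strand: GAAA, any 2 bases and GAAA again for the interferon-stimulated response element (ISRE), TGANTCA for AP-1, and GAGGAA for PU.1. The first 3 are from chromosome 13, at chr13:33004391-33004540 for Serpinb9, chr13:33027264-33027413 for Serpinb9b and chr13:32965111-32965260 for Serpinb6b.
Serpinb9: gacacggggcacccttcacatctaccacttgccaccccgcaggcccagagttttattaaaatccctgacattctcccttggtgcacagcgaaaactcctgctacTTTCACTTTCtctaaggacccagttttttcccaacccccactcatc
Serpinb9b: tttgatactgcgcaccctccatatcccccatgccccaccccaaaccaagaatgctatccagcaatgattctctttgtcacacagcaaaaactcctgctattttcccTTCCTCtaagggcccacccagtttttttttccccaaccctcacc
Serpinb6b: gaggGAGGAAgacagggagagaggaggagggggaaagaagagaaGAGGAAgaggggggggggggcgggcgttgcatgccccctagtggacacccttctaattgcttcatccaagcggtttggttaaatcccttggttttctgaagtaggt
The others are neighbours on chromosome 1, at chr1:107511273-107511422 for Serpinb2 (the first of its 2 listed starts), chr1:107528853-107529002 for Serpinb10 and chr1:107589856-107590005 for Serpinb8.
Serpinb2: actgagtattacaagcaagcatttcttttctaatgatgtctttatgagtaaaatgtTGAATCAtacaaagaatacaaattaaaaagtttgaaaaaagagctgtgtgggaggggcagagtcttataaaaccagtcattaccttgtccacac
Serpinb10: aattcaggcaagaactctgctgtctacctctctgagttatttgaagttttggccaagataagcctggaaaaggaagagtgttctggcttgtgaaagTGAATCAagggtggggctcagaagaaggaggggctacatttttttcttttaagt
Serpinb8: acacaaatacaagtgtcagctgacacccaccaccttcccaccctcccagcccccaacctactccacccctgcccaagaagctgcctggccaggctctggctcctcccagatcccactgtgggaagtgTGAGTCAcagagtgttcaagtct

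Values below are log2 signals relative to the 75th percentile of each array, so a rise of 1 is a doubling, and levels of different probes cannot be compared. The share of probes read well above background was 47.7% to 51.3% per immature array and 47.5% to 48.4% per LPS array, with 0 saturated spots. One slide carried the whole series, with the immature samples in one row and the LPS samples in the other, so slide row and treatment cannot be told apart. Immature replicate 3 stood apart from the other immature arrays. The scaled median absolute deviation of its log2 differences from them was 0.254 to 0.387, against 0.0941 to 0.204 among the others. It was taken over genes well above background on all arrays with a mean value above 0. Member values without it are given where they differ in call. The tissue label was checked against dendritic cell markers: all 8 were well above background on all arrays, Itgax, the integrin CD11c, fell from 7.24 to 6.25, and the maturation genes Ccr7 and Cd83 rose by 2.12 ± 0.18 and 2.0 ± 0.17 (SE; limma adjusted p = 3.64e-05 and 4.09e-05).

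After LPS, Serpinb6b rose by 8.16-fold, Serpinb9 by 3.27-fold, Serpinb2 by 2.82-fold and Serpinb8 by 1.70-fold, while Serpinb10 was 14.6-fold lower and Serpinb1a 2.23-fold lower. Serpinb6a had a change of 0.46 ± 0.17 and was not called, and Serpinb9b was not measurable. Of the 8 members, 7 were well above background on all 8 arrays and were tested. Of these 7, 4 were called higher (57.1%) and 2 lower (28.6%) by limma at an adjusted p under 0.05. Among all 12707 tested genes 56.1% were called, 31.4% higher and 24.7% lower, so a call by itself was common. The immature and LPS values did not overlap in 6 members, against 52.4% of all tested genes. The members' median change was 0.76, beside 0.06 over all tested genes. The members were chosen with earlier results of these data known, so these shares describe the list and do not test it. In bulk RNA, fewer cells of a type and less RNA per cell cannot be told apart.

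**Figure D1:**
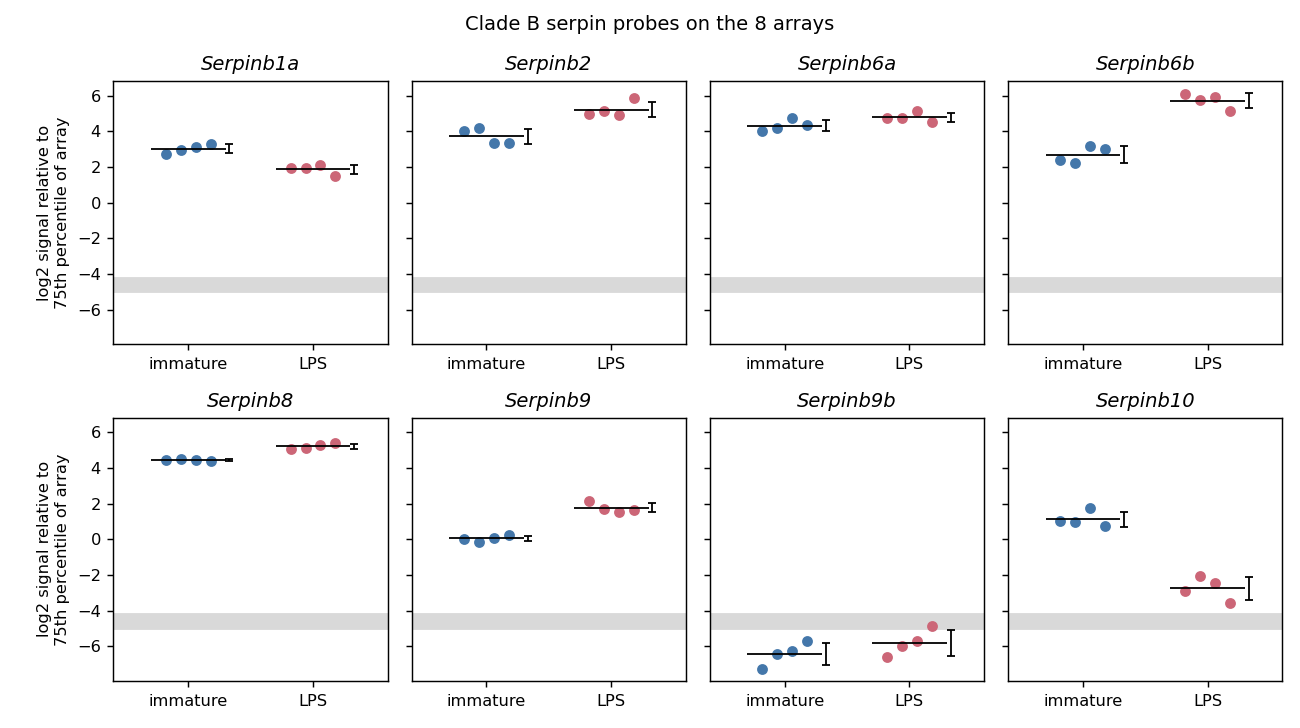
Log2 signal relative to the array's 75th percentile (vertical axis) for each of the 8 clade B serpins in 4 immature and 4 LPS arrays; points are arrays, lines the group means, bars the SD, and the grey band spans the lowest signals called well above background on the 8 arrays (-5.00 to -4.21). Serpinb10 and Serpinb1a are lower on every LPS array than on any immature array, Serpinb6b, Serpinb9, Serpinb2 and Serpinb8 are higher, Serpinb6a overlaps between the groups, and Serpinb9b was on no array well above background.

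Among the members that inhibit neutrophil-type serine proteases, one fell and the other was not called. Serpinb1a inhibits neutrophil elastase, cathepsin G and proteinase 3. Its values were 2.71, 2.96, 3.12 and 3.31 in immature replicates 1 to 4 and 1.93, 1.93, 2.10 and 1.51 in LPS replicates 1 to 4. The highest LPS value lay below the lowest immature value. The mean went from 3.03 ± 0.26 to 1.87 ± 0.25 (SD, n = 4 each), a change of -1.16 ± 0.16 (SE; limma adjusted p = 0.000495). A larger fall was seen in 941 tested genes, 7.41% of them.

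Serpinb6a, the mouse counterpart of human PI-6 and an inhibitor of cathepsin G, read 4.04, 4.17, 4.74 and 4.33 in the immature samples and 4.74, 4.75, 5.11 and 4.53 after LPS. Immature replicate 3 was as high as the lower LPS samples, so the groups overlapped. The change of 0.46 ± 0.17 had a limma adjusted p of 0.0503, just outside the threshold. Without immature replicate 3 it was 0.60 with an adjusted p of 0.00886, and without LPS replicate 4 it was 0.55 with an adjusted p of 0.0393, so 1 array decided the call in either case. Serpinb1a and Serpinb6a differed in response: the log2 ratio of Serpinb1a to Serpinb6a was lower after LPS by a difference of -1.62, a 3.07-fold shift (exact two-sided permutation test, p = 0.0286, adjusted p = 0.0476 over 5 pairs). With 4 arrays against 4 there are 70 splits, and 0.0286 is the smallest p they can give.

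Neutrophil serine proteases, the targets of these serpins among them, fell, as did Serpinb1a but not Serpinb6a. Of 4 neutrophil serine proteases all 4 were called lower, with a median change of -2.53, or -2.11 with 2 of them at their bounds, beside 0.06 over all tested genes. Ctsg, cathepsin G itself, fell by 3.87 ± 0.49 on the log2 scale (limma adjusted p = 0.000297) and Elane, neutrophil elastase, by 0.78 ± 0.14 (adjusted p = 0.00177). Prtn3, proteinase 3, was at least 7.98-fold lower, a bound because 1 LPS array did not read it well above background. Such a bound sets the bright group's mean against dim arrays raised to the lowest signal called well above background on that array. Neutrophil lineage markers moved with Serpinb1a: all 10, of which Elane, Prtn3 and Ctsg are 3, were well above background on every immature array and called lower, the median change was -2.78, and their summed linear signal ranged from 777 to 924 immature and from 263 to 474 after LPS, in units of the 75th percentile. Their part in the falls of Serpinb1a and Serpinb10 was not tested.

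The granzyme inhibitors contained the strongest rise among the members. Serpinb6b is an inhibitor of granzyme A, a protease of cytotoxic lymphocytes. It read 2.38, 2.21, 3.18 and 3.02 in the immature samples and 6.11, 5.75, 5.91 and 5.14 after LPS, with no overlap and with immature replicates 3 and 4 above the others. The mean rose from 2.70 ± 0.48 to 5.73 ± 0.42 (SD, n = 4 each), by 3.03 ± 0.28 (SE; limma adjusted p = 5.16e-05), and 172 tested genes, 1.35%, rose by more. Serpinb6b and Serpinb6a are close paralogs, yet the change of Serpinb6b exceeded that of Serpinb6a by 2.57, a 5.93-fold shift in their ratio (exact two-sided permutation test, p = 0.0286, adjusted p = 0.0476 over 5 pairs).

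Serpinb9, also called Spi6, inhibits granzyme B and is known to protect cytotoxic T cells and dendritic cells from it. Its values were 0.03, -0.12, 0.07 and 0.22 in the immature samples and 2.13, 1.72, 1.56 and 1.63 after LPS. Every LPS sample lay above every immature sample, and the immature values were tightly grouped. The change was 1.71 ± 0.14 (SE; limma adjusted p = 2.59e-05), and 544 tested genes, 4.28%, rose by more. Its neighbour and near copy Serpinb9b was well above background on 0 of 8 arrays. Its readings, between -7.26 and -4.87, are background, so no change can be given for it. The test planned for this pair (exact two-sided permutation p = 0.0857, adjusted p = 0.0857 over 5 pairs) cannot be read, because one side is background.

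Most of the granzymes were not detected. Of 11 genes for granzymes and perforin, 7 were on no array well above background, among them Gzmb, the main target of Serpinb9, and Gzma, that of Serpinb6b. Of the 4 tested, 1 was called higher, 1 lower and 2 neither, with a median change of -0.14. Prf1, the pore-forming perforin, fell by 0.45 ± 0.10 (limma adjusted p = 0.00446). Gzmk had a change of 0.36 ± 0.13 (adjusted p = 0.0412), a call that 14 of 21 alternative settings ended, among them leaving out immature replicate 1 or 3 or any single LPS array. Of the natural killer cell markers 2 of 5 were tested, with 1 called lower: Klrb1c, the NK1.1 antigen, was at least 1.35-fold lower and on no LPS array well above background, but with normexp background correction its change was -0.18 and not called (adjusted p = 0.0577). Of 3 tested T cell markers 1 was called higher and 1 lower. Lck rose by 1.72 ± 0.18 (limma adjusted p = 0.0001025) and was well above background on all arrays. Cd3d, a T cell receptor chain, was at least 3.10-fold lower and also on no LPS array well above background. The summed signal of the T cell markers was higher on every LPS array than on any immature array. Only Lck among those with a probe had a higher mean after LPS, from -1.93 to -0.21. Cd3e had a change of -0.002 ± 0.085 (limma adjusted p = 0.983). Cd3g and Cd8a were each well above background on 1 immature array and 0 LPS arrays, and were not tested.

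Serpinb2, plasminogen activator inhibitor 2, blocks urokinase and tissue plasminogen activator and is a well known LPS-induced gene of macrophages. It read 4.0, 4.17, 3.35 and 3.35 in the immature samples and 4.97, 5.11, 4.91 and 5.85 after LPS. The groups did not overlap, and LPS replicate 4 was the highest of all. The mean rose from 3.72 ± 0.43 to 5.21 ± 0.44 (SD, n = 4 each), by 1.49 ± 0.27 (SE; limma adjusted p = 0.00171), and 686 tested genes, 5.4%, rose by more.

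Its targets went opposite ways. Plau, urokinase, fell by 1.07 ± 0.18 (limma adjusted p = 0.00117). Plat, tissue plasminogen activator, was on no immature array but on all 4 LPS arrays well above background, and was at least 31.9-fold higher on the processed signals. This size depends on the treatment of background: with normexp the fitted log2 change of Plat was 3.12, still called. Of 5 tested plasminogen activators and receptors 2 were called higher and 2 lower, with a median change of 0.11. Anxa2, a plasminogen-binding annexin, had a change of 0.26 ± 0.09 (adjusted p = 0.0402), which 15 of 21 alternatives ended, 7 of them by leaving out 1 array (any but immature replicate 4).

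Serpinb8 is an inhibitor of furin, the protease that trims proproteins in the secretory pathway. Its values were 4.47, 4.52, 4.42 and 4.38 in the immature samples and 5.05, 5.14, 5.27 and 5.40 after LPS. The rise was smaller than that of the other 3 members called higher, with little spread between arrays: the SD was 0.06 in immature and 0.15 in LPS samples, and the change was 0.76 ± 0.09 (SE; limma adjusted p = 0.000197). Some 1724 tested genes, 13.6%, rose by more. Furin itself had a change of 0.22 with an adjusted p of 0.173. Of the 8 tested caspases and furin-family proteases 5 were called higher and 1 lower, with a median change of 0.46. Casp4, an inflammatory caspase, rose by 1.92 ± 0.12 (adjusted p = 7.35e-06), and Casp6 fell by 0.85 ± 0.08 (adjusted p = 6.26e-05).

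Serpinb10, bomapin, is a nuclear serpin known from the bone marrow and from myeloid progenitors. It read 1.01, 0.99, 1.75 and 0.74 in the immature samples and -2.88, -2.08, -2.42 and -3.59 after LPS. The groups lay far apart, and each LPS value was still well above background. The mean fell from 1.12 ± 0.44 to -2.74 ± 0.65 (SD, n = 4 each), a change of -3.87 ± 0.34 (SE; limma adjusted p = 4.23e-05). Only 36 tested genes, 0.283%, fell by more. With normexp background correction the change was -2.93, still called.

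Serpinb10 lies between Serpinb2 and Serpinb8 on chromosome 1, and it fell where both neighbours rose. Against Serpinb2, its change differed by -5.36, a 41.1-fold shift in their ratio (exact two-sided permutation test, p = 0.0286, adjusted p = 0.0476 over 5 pairs). The changes of Serpinb8 and Serpinb2 differed by -0.73, a 1.66-fold shift that was not called (exact two-sided permutation test, p = 0.0571, adjusted p = 0.0714 over 5 pairs). This last p moved to 0.0286 with normexp and to 0.0357 with quantile normalization or without immature replicate 2, so a difference between these neighbours is not settled.

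**Figure D2:**
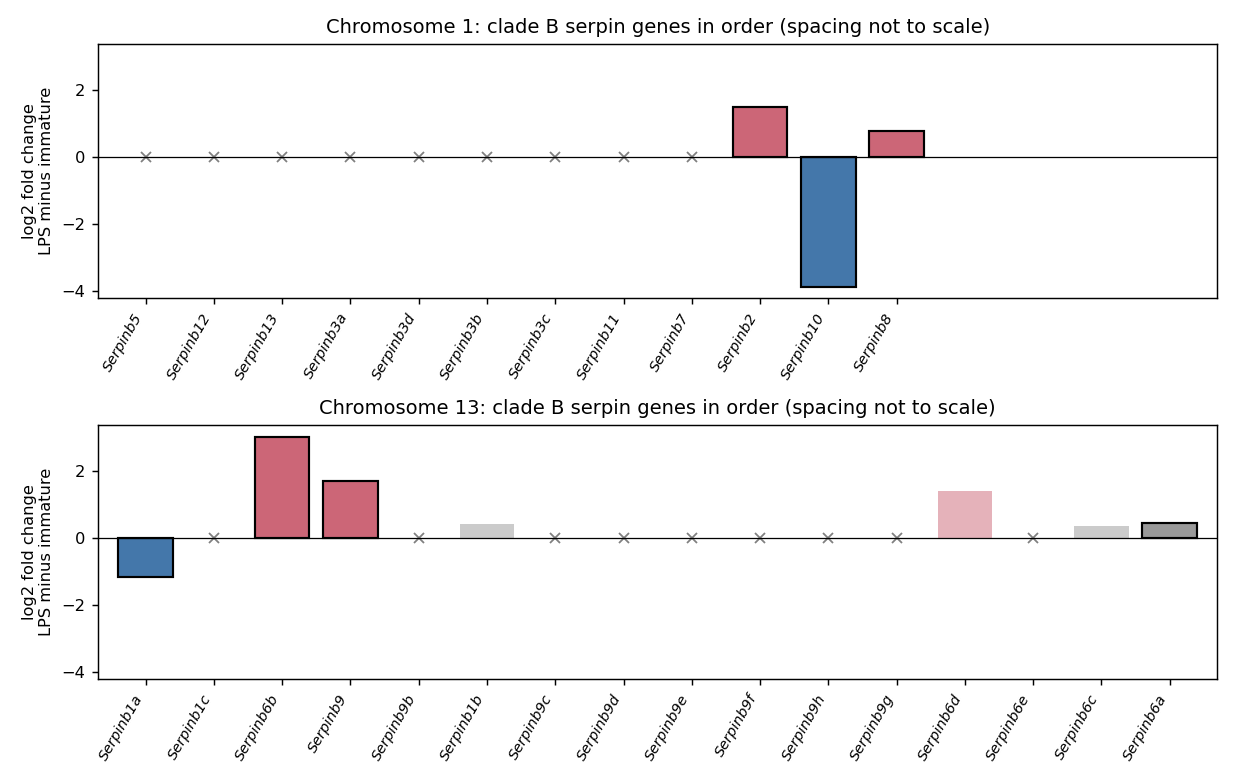
Change after LPS (log2, LPS minus immature, vertical axis) of the clade B serpins in RefSeq gene order on chromosomes 1 and 13 (horizontal axis, order and not distance); coloured bars were called, grey bars were not, crosses mark genes not tested, and black outlines mark the 7 tested members, with other clade B genes in paler colour. Serpinb10 (-3.87) stands between Serpinb2 (1.49) and Serpinb8 (0.76), and on chromosome 13 Serpinb1a fell while Serpinb6b, Serpinb9 and Serpinb6d rose.

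In the RefSeq gene order, chromosome 1 holds 12 clade B genes, and the 3 members there are consecutive and were the 3 tested. Chromosome 13 holds 16 clade B genes, 15 of them with a probe, and 7 were tested. Serpinb1a, at one end of that cluster, fell, and Serpinb6a, at the other end, was not called. Outside the 8 members 19 further clade B serpins had a probe, of which 13 were on no array well above background and 3 were tested. Serpinb6d rose from -1.98 ± 0.33 to -0.58 ± 0.21 (SD, n = 4 each), by 1.40 ± 0.18 (SE; limma adjusted p = 0.000269), with no overlap. Serpinb6c and Serpinb1b had changes of 0.37 ± 0.17 and 0.43 ± 0.19 with limma adjusted p of 0.0957 and 0.089. Each was called under 3 alternatives: Serpinb6c without immature replicate 3 (adjusted p = 0.0164), with the replicate block (0.0456) and with array weights (0.00119), and Serpinb1b without LPS replicate 4 (0.00837), with normexp (0.0492) and with array weights (0.00907).

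The probes of Serpinb6a and Serpinb6c moved together from array to array. The log2 gap between the Serpinb6a probe and the brighter Serpinb6c probe had an SD of 0.0545 over the 8 arrays, and the gap to the other Serpinb6c probe had an SD of 0.0646. The gap to Serpinb6b had an SD of 1.4 and that to Serpinb6d an SD of 0.547. These SDs span both groups, so they include differences in LPS change. The mean gap to Serpinb6b was 1.62 in immature and -0.94 in LPS samples, and that to Serpinb6d 6.30 and 5.36. Whether transcripts of these paralogs bind each other's probes was not tested, so the values of Serpinb6a and Serpinb6c are uncertain as single-gene values.

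**Figure D3:**
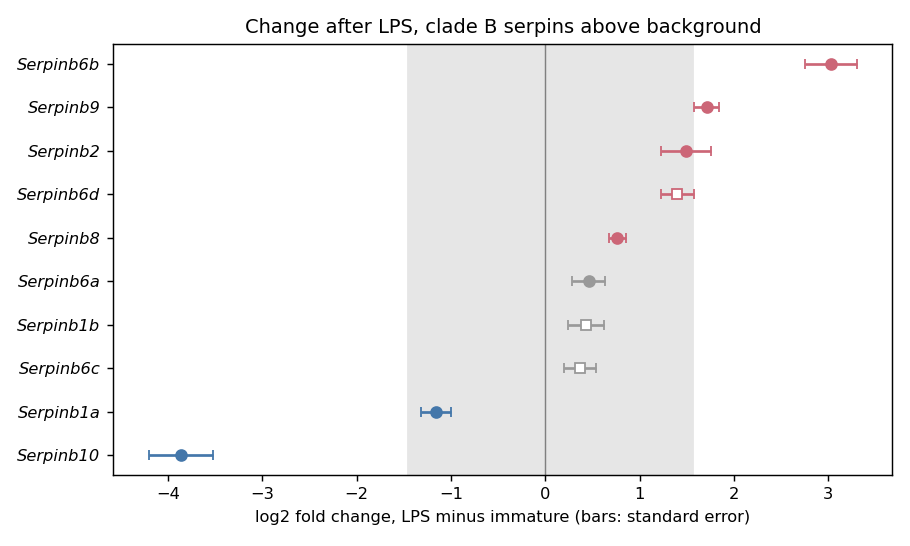
Change after LPS with its SE (log2, LPS minus immature) of the 7 tested members (circles) and 3 other clade B serpins (squares), with red for called higher, blue for called lower and grey for not called. The grey band spans the 5th to 95th percentile of all 12707 tested genes, from -1.46 to 1.57; Serpinb6b and Serpinb9 lie above it and Serpinb10 below it.

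Promoter sequence was compared over the 250 bases before each listed start, both strands, for 7 members (all but Serpinb1a) with 9 listed starts between them, beside 32851 windows of all genes. The ISRE motif was found 46 bases before the start of Serpinb9 and 84 bases before the upstream start of Serpinb6a, and in 2.98% of all windows. AP-1 was found in the windows of all 3 members on chromosome 1, Serpinb2 at 94 bases from its first start, Serpinb10 at 54 and Serpinb8 at 23, and in 6.75% of all windows. The AP-1 motif thus stands before a gene that fell and before both of its neighbours that rose. PU.1 letters stood before Serpinb6b, at 146 and 106 bases, and before Serpinb9b, at 44, and in 23.3% of all windows. A TATA box (TATAAA), kept in lower case above, lay 29 bases before the first start of Serpinb2. These letters are present anywhere in 12.4% of windows on either strand, and near the start on the printed strand in 1.84%. The C/EBP motif TTGCNNAA was found for Serpinb2 alone among the 7 members with a window, against 9.56% of windows. The kappa B motif had no match in any of the 9 windows and is found in 3.9% of all. No 2 motif matches overlapped. A match is a description of the letters and not evidence of binding.

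The Serpinb9 and Serpinb9b sequences printed above are related. A local alignment of the 2 windows covered 166 columns, from 163 to 5 bases before the Serpinb9 start, and 117 columns (70.5%) were identical. The ISRE letters of Serpinb9 fall inside the aligned stretch, and Serpinb9b had no ISRE match in its window. Serpinb6a, which was not called, had an ISRE match, and Serpinb6b, which rose most among the members, had none. A link between these matches and the array values was not tested.

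For each member the genes whose profile over the 8 arrays lay nearest were taken, as the smallest root mean square distance in log2 among 12686 tested genes outside the serpins, each profile set to its own immature mean. This also uses the LPS change, so it is a description. The distance is not scaled to a profile's change or spread, so distances cannot be compared between members. Nearest to Serpinb8 were Ms4a4c (0.0183) and Sema4c (0.0304). The nearest to Serpinb6a were Ticam1 (0.0869) and Atg14 (0.0995), to Serpinb6b Grasp (0.108) and Helz2 (0.157), and to Serpinb9 Ppp3cc (0.112) and Nudt17 (0.12). The nearest to Serpinb1a were Jup (0.143) and 0610040J01Rik (0.144), and to Serpinb2 Ms4a6c (0.19) and Rcl1 (0.196). For Serpinb10 the nearest were the monocyte chemokine receptor gene Ccr2 at 0.274, which fell by 3.64 ± 0.34, and the kallikrein gene Klk1b27 at 0.348, which fell by 3.61 ± 0.24.

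Other protease inhibitors gave no single direction. Of 10 tested serpins of other clades 4 were called higher and 3 lower, with a median change of 1.15, or 0.99 with 4 genes at their bounds. Serpini1, neuroserpin, rose by 1.96 ± 0.15 (limma adjusted p = 1.88e-05). Serpina3f had a change of -1.49 ± 0.55 (adjusted p = 0.045), a call that ended when any single array other than immature replicate 3 was left out, with adjusted p between 0.0744 and 0.111. Of 15 other protease inhibitors 5 rose, 5 fell and 5 were not called, with a median of 0.02: the metalloproteinase inhibitor Timp1 rose by 3.47 ± 0.23 and the elastase inhibitor Slpi by 1.98 ± 0.21, while the stefin gene Stfa1, a cathepsin inhibitor, fell by 2.71 ± 0.25 (adjusted p = 9.63e-06, 0.000104 and 5.44e-05). Of 9 cysteine cathepsins 4 were called higher and 0 lower, with a median of 0.24. Ctsz, cathepsin Z, rose by 0.66 ± 0.09 (adjusted p = 0.000335). Ctsk, cathepsin K, had a change of 0.53 ± 0.20 (adjusted p = 0.0477), which was not called when any array other than immature replicate 3 or LPS replicate 4 was left out, with adjusted p between 0.0821 and 0.12.

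**Figure D4:**
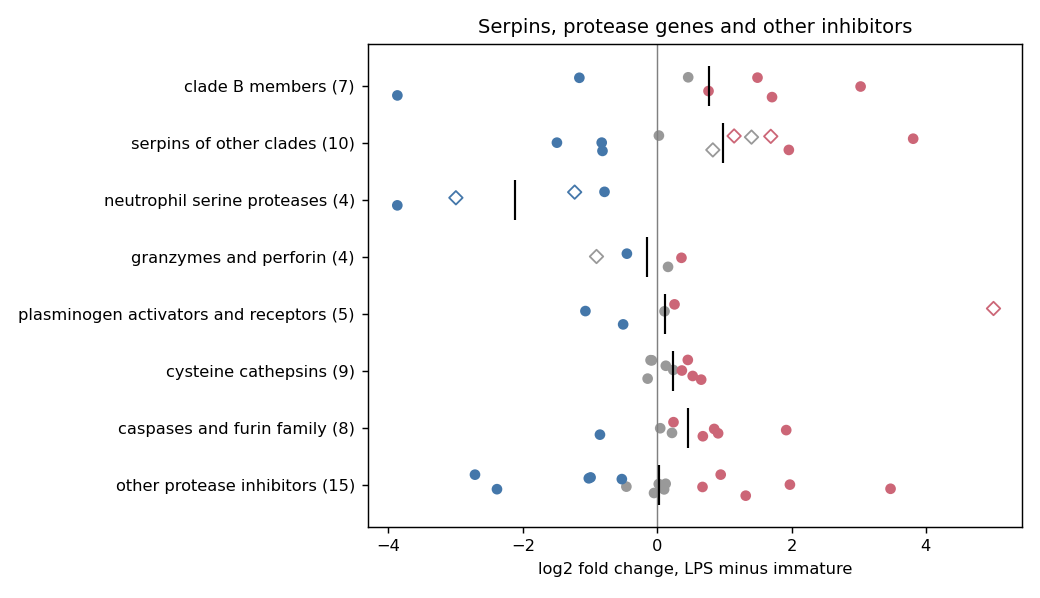
Change after LPS (log2, LPS minus immature, horizontal axis) of the tested genes in each list of serpins, proteases and other inhibitors (rows, number tested in brackets); dots are genes, red for called higher, blue for called lower and grey for not called, open diamonds are bounds for genes not well above background on some arrays of a group, and the black line is the list's median with those bounds. The neutrophil serine proteases all lie below 0, with a median of -2.11, and each of the other lists drawn holds genes on both sides of 0.

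Markers of other cell types are given because several moved between the groups. Dendritic cell markers were called higher in 6 of 8 and lower in 1, with a median of 1.97 and a summed signal of 284 to 339 immature and 684 to 795 after LPS. Fscn1, the actin bundler of mature dendritic cells, rose by 2.76 ± 0.12. Macrophage markers gave 1 higher and 1 lower of 5 (median -0.13, sums 326 to 377 and 324 to 383). Mrc1, the mannose receptor, fell by 4.23 ± 0.18, and Adgre1 rose by 0.93 ± 0.12 (limma adjusted p = 0.000294). All 4 tested mast cell and basophil markers fell (median -1.78, sums 6.87 to 13.2 and 1.79 to 4.69), as did 4 of 5 eosinophil markers (median -1.46, sums 203 to 246 and 39.0 to 104). Megakaryocyte and platelet markers gave 2 higher and 1 lower of 5 (median -0.06, sums 161 to 202 and 297 to 352). The 2 called higher were Pf4, by 0.99 ± 0.09, and Ppbp, by 0.56 ± 0.20 (limma adjusted p = 5.99e-05 and 0.0384). T cell, natural killer, B cell and epithelial markers had sums between 0.504 and 7.46 over all arrays. Of them 3, 2, 2 and 2 were tested, with medians of 0.00, -1.34, -0.88 and -1.73. With 1 gene at its bound in each, the natural killer and B cell medians were -0.49 and -0.64. The 2 tested epithelial markers were Cdh1, with an immature mean of 2.21, and Krt14, with a change of 0.02 ± 0.13 (limma adjusted p = 0.894). Mpo, myeloperoxidase, fell by 4.66 ± 0.42, Mcpt8 of basophils by 2.14 ± 0.41, Ear1 of eosinophils by 2.24 ± 0.34, Itga2b of megakaryocytes by 1.11 ± 0.22 and the E-cadherin gene Cdh1 by 3.47 ± 0.38, each called by limma, and Cd79b of B cells had a change of -0.27 ± 0.40 (adjusted p = 0.586). The part of these cells in the members' changes was not tested.

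**Figure D5:**
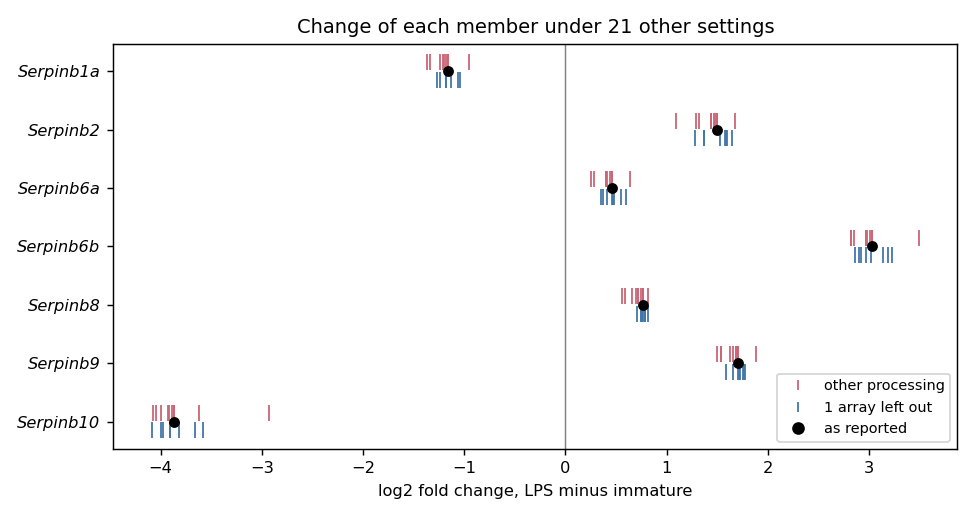
Change after LPS (log2, LPS minus immature) of each tested member as reported (black dots), under alternative processing or models (red ticks) and with 1 array left out (blue ticks), 21 alternatives in all. Serpinb10 ranges from -4.09 to -2.93 and Serpinb6b from 2.82 to 3.50; the 6 called members stay on their side of 0, and Serpinb6a lies between 0.25 and 0.64.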

How the data were processed

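Total RNA of 4 immature and 4 LPS samples was labelled with Cy3 and hybridised to one-colour Agilent arrays, per the labels. Per the submitters' processing notes Agilent Feature Extraction 11.0.1.1 quantified the scans. The deposited processed signals are intensities with background subtracted; the deposited median, background and background-subtracted intensities and the spot flags served the alternatives and filters.

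Outlier-flagged spots were left out (122 to 206 per array), a probe's spots were averaged in log2, and each array's 75th percentile was subtracted. Probes were named by transcript accession through a RefSeq table (GRCm38.p6). Promoters are RefSeq's of that build. The brightest probe stood for a gene, which was tested when 1 group or both read it well above background in all 4 samples. Groups were compared with lmFit and eBayes (limma 3.58.1 and version 1.17.8 of data.table, R 4.3.3; two-sided, Benjamini-Hochberg over all 12707 genes, called under 0.05), and 5 member pairs with exact permutation tests. Python 3.11.15 drew the figures (numpy 2.4.6, matplotlib 3.10.9). The limma script was tested on simulated data. Precision is limited by the number of arrays.

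The genes named are all members, other clade B serpins that were tested, the called genes with the largest change in each list in either direction, the top marker of each cell type, a few genes named whatever their result, and the nearest profiles. Lck, Cd3e, Cd3g, Cd8a, Adgre1, Pf4, Ppbp and Krt14 are given beside other markers of their lists and are not in the counts of named genes. The members and lists were chosen with earlier results of these data known. The replicate numbers were checked as pairs. The results of 2 genes that this rule also names are not reported here.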

Additional observations from a re-analysis of the deposited data

Results flagged for a closer look

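In 6 of 106 groups of 4 arrays tested, over the named genes well above background on all 4, 1 array lay far from the other 3; chance gives about 1 in 20, and none of the 6 concerns a clade B serpin. Anxa2 read 8.42 in LPS replicate 3, against 8.22 to 8.24 in the other LPS arrays. Fscn1 read 4.59 in LPS replicate 1, against 4.13 to 4.2. Mcpt8 read 1.86 in immature replicate 4, against 0.76 to 0.86. Cdh1 read -0.66 in LPS replicate 3, against -1.50 to -1.45. The gene 0610040J01Rik read -2.16 in immature replicate 4, against -2.49 to -2.43. Atg14 read 1.00 in immature replicate 3, against 0.46 to 0.53.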

How the results depend on the processing

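The 6 called members kept their direction and their call under all 21 alternatives, with changes (log2) of -4.09 to -2.93 for Serpinb10, -1.37 to -0.95 for Serpinb1a, 1.09 to 1.67 for Serpinb2, 2.82 to 3.50 for Serpinb6b, 0.56 to 0.82 for Serpinb8 and 1.5 to 1.89 for Serpinb9. Serpinb6a (0.25 to 0.64) was called under 6 of them, with normexp (adjusted p = 0.0391), on genes above background on all 8 arrays (0.0471), with the replicate block (0.0189), with array weights (0.000581), without immature replicate 3 (0.00886) and without LPS replicate 4 (0.0393), and had its highest adjusted p, 0.192, without scaling. The count of genes called, 7124, was 10759 with no filter on dim probes, which tests 20887 genes, and 6180 to 7899 when 1 array was left out. It was 9218 with array weights and lowest, 5426, with replicates 1 and 2 averaged, the most alike pair of arrays in each group. Of the calls 56.0% were higher, against 38.5% with the array median as the scale and 35.3% without scaling, where the median change of all genes was -0.12 and -0.15, and 70.9% with no filter on dim probes, where that median was 0.26. Correlations of same-numbered deviations were 0.192, 0.0219, 0.0513 and -0.102, and not every sample correlated best with its own number. These values cannot decide whether the replicate numbers pair the samples. With the replicate block 6606 genes were called. Averaging replicates 1 and 2 of each group left 3 against 3, too few for an exact pair test to pass. Of 49 named genes outside the members 38 kept their call and direction throughout, 10 changed call at least once, and Cd79b, not called, turned to 0.0345 without immature replicate 1 (range -0.52 to 0.0345 when 1 array was left out). Dim probes near background limit what can be said of Serpinb9b.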
